A study of Mus musculus with 6 samples.

Results

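The histone genes that cells use to package newly copied DNA, together with the linker histone genes, were followed in cultured mouse preosteoblasts. Members were all rows of the deposited expression table whose symbol carries the systematic name of an H1, H2A, H2B, H3 or H4 cluster gene or the older Hist1 to Hist4 form. The rule gave 61 of 17001 rows: 8 for H1, 14 for H2A, 16 for H2B, 12 for H3 and 11 for H4. On GRCm38, 50 of the 61 lay on chromosome 13, 9 on chromosome 3, 1 on chromosome 15 and 1 on chromosome 6.

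The study cultured preosteoblasts from the calvariae of 3-day-old mice and asked how loss of NELL2, a secreted glycoprotein, changes their transcriptome. All 6 libraries came from animals with both Nell2 alleles floxed (NELL2 fx/fx). The 3 control libraries carried the floxed alleles alone, and the 3 cKO libraries also carried Col1-cre, a Cre recombinase driven by a Col1a1 promoter fragment and therefore active in cells of the osteoblast lineage. Per the labels, cells were grown in α-MEM with serum, and polyadenylated RNA was captured on oligo(dT) beads and sequenced as paired 150-base reads. The labels do not state that replicates came from separate animals or cultures, so p-values measure only the spread between these samples.

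Nucleosomes consist of DNA wrapped around a core of H2A, H2B, H3 and H4, and an H1 linker histone binds where the DNA enters and leaves. Most replication-dependent histone genes lie in clusters, have no introns and are transcribed mainly in S phase, and their mRNAs typically end in a conserved stem-loop bound by SLBP rather than in a poly(A) tail. Replication-independent histones, such as H1f0 among the linker histones and H3f3a and H3f3b among the H3 genes, give ordinary polyadenylated mRNAs throughout the cell cycle. Oligo(dT) capture selects for a poly(A) tail, so the values below describe histone RNA recovered in that way and not total histone mRNA.

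The targeted gene was examined first. Nell2 stood at 3.17, 2.59 and 1.88 FPKM (fragment counts corrected for transcript length and for library size) in the control libraries and at 5.64, 1.61 and 5.74 FPKM in the cKO libraries. It was therefore not lower in the cKO group, where 2 libraries lay above all controls, and the groups are called by their labels below. The paper reports deletion of NELL2 in calvarial preosteoblasts by qRT-PCR and western blotting. FPKM was given per gene, so loss of part of the transcript was not tested here. For Nell2 the log2 fold change was 0.48 (SE 0.37). Every fold change in the text is the limma difference in log2(FPKM + 1), labelled cKO minus control, adjusted by Benjamini-Hochberg over 11590 genes. Osteoblast lineage markers summed to 15881 to 16984 FPKM in control and 16322 to 16604 FPKM in cKO libraries, nearly all of it from the collagen genes Col1a1 and Col1a2. Ibsp (−1.27), Bglap (−1.15), Sp7 (−0.48) and Alpl (−0.45) were lower in every cKO library than in every control, at an unadjusted p under 0.05 but not after adjustment. Of all tested genes, 11.8% were separated in this way and 7.76% were lower at that threshold. The other listed markers, Col1a1 (−0.01), Col1a2 (0.04) and Runx2 (−0.21), overlapped between groups. The 2 erythroid markers listed reached at most 0.27 FPKM in sum. FPKM summed over all rows to 573307 to 606428 per library, and the read depth behind these values is unknown.

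The stem-loop was looked up in annotated transcripts to see which members carry it. In GENCODE M21 transcripts on GRCm38, 42 of the 61 members held a 16-base histone stem-loop and 19 did not. Several of the 19 had short annotated transcripts, such as H4c12 (312 bases) and H2bc18 (381 bases). A stem-loop beyond the annotated end would be missed, so these genes cannot be said to lack it. The most frequent form, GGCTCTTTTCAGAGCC, was found in 24 members, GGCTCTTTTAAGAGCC in 6 and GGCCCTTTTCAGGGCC in 5. The following 30-base pieces show the stem-loop, in capitals, in the best-represented H1, H2A, H3 and H4 members that carry it, with 7 bases on each side.
H1f2: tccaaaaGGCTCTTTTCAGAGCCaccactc
H2ac18: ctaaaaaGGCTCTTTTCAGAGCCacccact
H3c14: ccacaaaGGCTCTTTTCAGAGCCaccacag
H3c15: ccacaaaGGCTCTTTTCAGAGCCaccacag
H4c9: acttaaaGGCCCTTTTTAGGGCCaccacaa
H3c14 and H3c15 were identical over these 30 bases, and H4c9 carried a form found in only 2 members.

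Some annotated transcripts continued beyond the stem-loop. The annotation ran for 35 further bases in H2ac18, 330 in H4c9, 377 in H3c15, 840 in H1f2 and 1162 in H3c14. A poly(A) signal, AATAAA, stood in the last 50 bases of the transcripts of 13 members, and it is shown in capitals in the last 30 bases of 4 of them.
H1f0: aactttaaAATAAAactggaaaggaaaaaa
H1f2: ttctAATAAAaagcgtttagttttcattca
H1f10: ctggggcgcAATAAAcggttccaaccttga
H3c14: ttttttaatcccAATAAAaatttaacacac
H1f2 and H3c14 thus held both a stem-loop and a poly(A) signal in annotation, whereas H1f0 and H1f10 held the signal alone. No AATAAA was found at the end of the annotated transcripts of H2ac18, H4c9, H3c15 or H2bc4.

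Most members were barely detected, and a few genes carried nearly all the signal. Mean FPKM over the 6 libraries was 10 or more in 6 members, 1 to 10 in 7 and under 1 in 48, with a median of 0.417 over the 61. H1f0, H2bc4, H1f2 and H2ac18 made up 85.5% of the summed histone FPKM, and H1f10 and H4c9 brought this to 91.9%. Of the 366 values, 115 were 0, with 17 to 21 members listed at 0 in each library. Among the 6 members at 10 FPKM or more, 3 held the stem-loop (H1f2, H2ac18 and H4c9) and 3 did not (H1f0, H1f10 and H2bc4). By level, H1f0 lay above or level with 96.3% of all rows of the table, H2bc4 95.6%, H1f2 92.9%, H2ac18 91.9%, H1f10 70.4% and H4c9 70.1%.

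**Figure D1:**
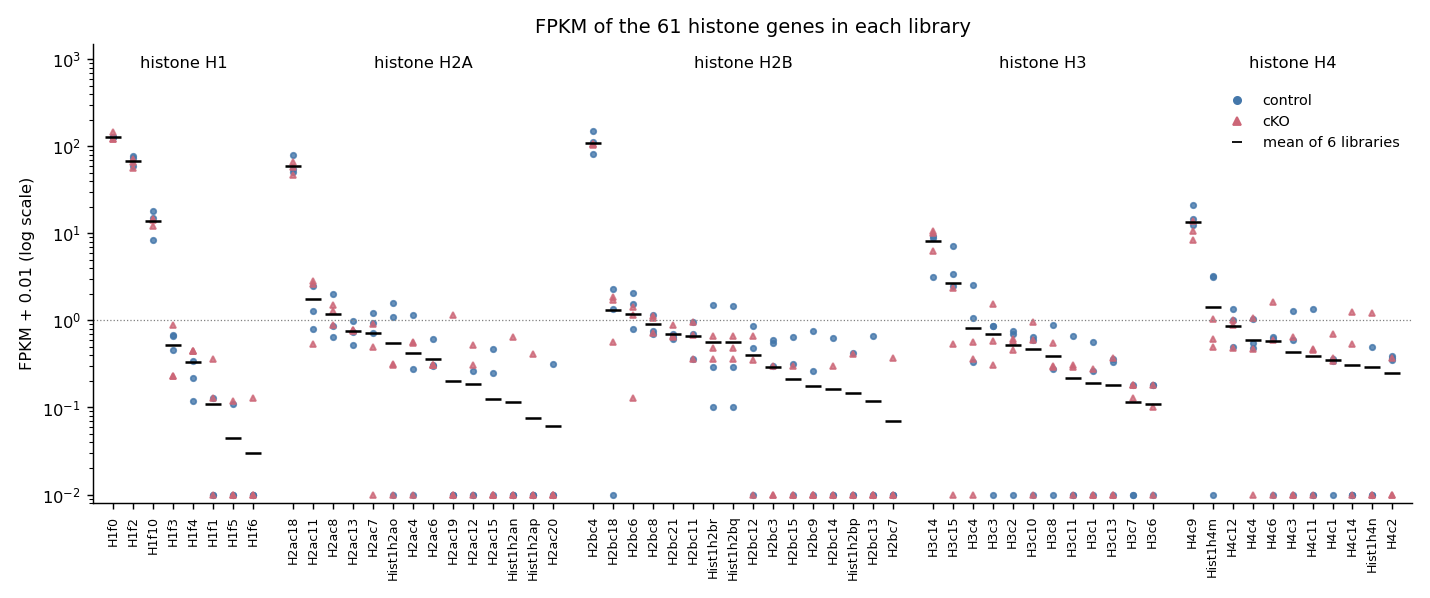
FPKM + 0.01 on a log scale for each of the 61 histone genes in the 3 control (circles) and 3 cKO (triangles) libraries, with black dashes at the mean of the 6 libraries and a dotted line at 1 FPKM. Only 6 genes average 10 FPKM or more, and points on the floor are the 115 values listed at 0.

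No histone gene passed the adjusted threshold. Of the 61 members, 15 reached 1 FPKM in at least 3 libraries and were tested, and 0 of these had an adjusted p under 0.05, as did 0% of all genes tested. At an unadjusted p under 0.05, 1 of the 15 (H3c15) was called, against 13.1% of all tested genes, or 7.76% for genes lower in cKO alone. The libraries of both groups were fully separated in 1 of 15 (again H3c15, lower in cKO), against 18.3% of all genes, of which 11.8 percentage points were lower in cKO. In direction, 8 of the 15 were lower and 7 higher. Their log2 fold changes had a median of −0.09, where all tested genes had a median of −0.02 and 55.8% lower. Neither count was above the background of all genes. The within-group SD of log2(FPKM + 1) had a median of 0.36 over the 15 histone genes and of 0.10 over all tested genes, which limits the changes these members could show. In bulk RNA, fewer cells in S phase and less histone RNA per cell cannot be told apart.

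**Figure D2:**
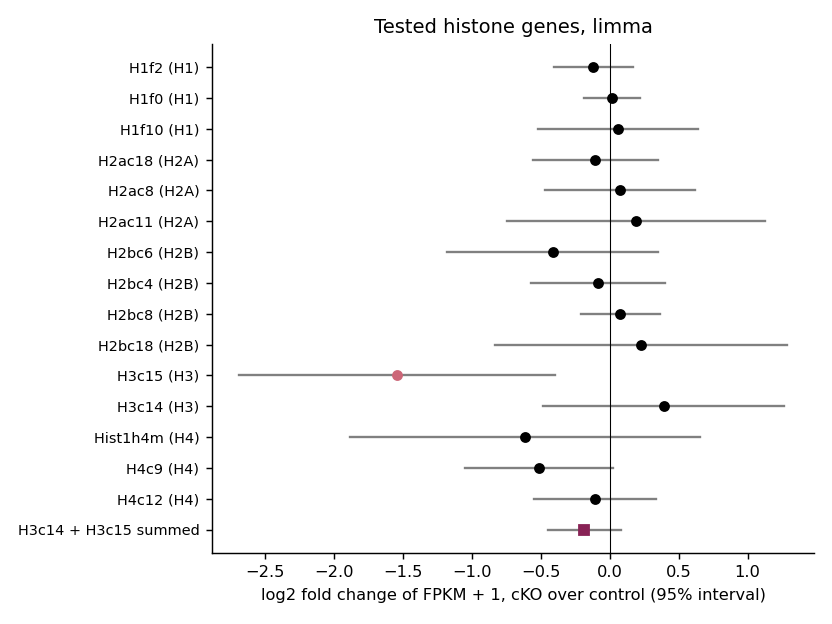
Log2 fold change of FPKM + 1, cKO over control, with 95% intervals for the 15 tested histone genes and for H3c14 and H3c15 summed to a single value (square). H3c15 (red) is the only gene whose interval leaves out 0, and the summed pair spans −0.45 to 0.08.

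Among linker histones, H1f0 was the most abundant member of the whole family. H1f0, the replacement linker histone that accumulates in cells that divide slowly or not at all, lies at chr15:79028450-79030504 on the plus strand, outside the clusters. It stood at 127.32, 129.04 and 127.16 FPKM in control and 122.44, 146.4 and 121.04 FPKM in cKO libraries. The 3 control values were nearly equal and the cKO values fell on both sides of them. The means were 127.84 ± 1.04 and 129.96 ± 14.3 (SD, n = 3 each), and the log2 fold change of 0.02 (SE 0.086) had a 95% interval from −0.19 to 0.22 (adjusted p = 0.947).

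H1f2, a cluster-encoded H1 subtype (chr13:23738808-23740367, plus strand), was the only such H1 gene at a high level. It measured 73.62, 77.25 and 59.88 FPKM in control and 56.95, 65.57 and 70.89 FPKM in cKO libraries. The groups overlapped, with control replicate 3 near the lowest cKO library. The difference was −0.12 (SE 0.12, 95% interval −0.41 to 0.17, adjusted p = 0.683). H1f10, a replication-independent linker histone on chromosome 6 (chr6:87980421-87981637, minus strand), was at 8.42, 18.05 and 14.91 FPKM in control and 14.37, 14.74 and 12.31 FPKM in cKO libraries. Here the control libraries enclosed all 3 cKO libraries, and the fold change was 0.06 (SE 0.25, adjusted p = 0.939). None of the 150-base windows of the H1f0, H1f2 and H1f10 transcripts occurred in another gene's annotated transcript. Shorter or inexact matches were not searched.

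The remaining H1 genes were near the floor. H1f1, H1f3, H1f4, H1f5 and the testis-specific H1f6 each averaged below 1 FPKM, and H1f6 was listed at 0 in 5 libraries and at 0.12 FPKM in cKO replicate 2. The other germ cell histone genes sought by name (H1f7, H1f8, H2ac1 and H2bc1) were not among the rows analysed here. Over all 8 H1 genes the sum was 212.8 ± 11.6 FPKM in control and 209.3 ± 16.6 FPKM in cKO (log2 ratio −0.02), and H1f0 supplied 61.1% of it.

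H2A was represented almost entirely by H2ac18. This gene, on chromosome 3 (chr3:96245497-96246082, plus strand), measured 55.12, 50.87 and 79.86 FPKM in control and 46.9, 58.3 and 65.56 FPKM in cKO libraries. The groups overlapped and control replicate 3 was the highest of the 6. Its fold change was −0.11 (SE 0.19, 95% interval −0.56 to 0.35, adjusted p = 0.826). H2ac18 has a near-identical copy, H2ac19, which lies in inverted orientation nearby (chr3:96239749-96240276, minus strand). All of the 379 windows of H2ac19 occurred in H2ac18, where they made up 86.7%, yet H2ac19 was listed at 0 in 5 libraries and at 1.16 FPKM in cKO replicate 1. How reads were divided between these copies is not given in the sources used here, so the H2ac18 value may stand for both.

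The next H2A genes were more than an order of magnitude lower. H2ac11 was at 0.79, 2.5 and 1.27 FPKM in control and 2.58, 0.53 and 2.84 FPKM in cKO, with a fold change of 0.19 (SE 0.39). H2ac8 was at 2, 0.64 and 0.85 FPKM in control and 1.29, 1.49 and 0.87 FPKM in cKO, with a fold change of 0.08 (SE 0.23). Both overlapped between groups, and neither passed (adjusted p = 0.854 and 0.907). The 14 H2A genes summed to 68.5 ± 13.996 FPKM in control and 63.2 ± 8.26 FPKM in cKO, of which H2ac18 supplied 90.3%.

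H2B rested on H2bc4 to a similar extent. H2bc4 lies in the chromosome 13 cluster (chr13:23684199-23692908, plus strand), and its annotated transcript differed from the usual form of these genes: it had 2 exons over 1156 bases and no stem-loop. Its values were 113.11, 151.04 and 80.89 FPKM in control and 103.47, 105.18 and 106.18 FPKM in cKO libraries. The controls spread widely on both sides of 3 nearly equal cKO values (115.0 ± 35.1 against 104.9 ± 1.37 FPKM). The fold change was −0.09 (SE 0.20, 95% interval −0.57 to 0.40, adjusted p = 0.875).

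The divergent neighbour of H2bc4 was close to the floor. H2ac6 starts 251 bases away on the opposite strand and held 0.29 to 0.6 FPKM in every library, with a mean of 0.348 FPKM against 110.0 FPKM for H2bc4. In all, 12 head-to-head pairs of members had starts 176 to 660 bases apart, and in the other 11 both partners averaged under 2 FPKM. Only H2bc4 among these 24 genes was therefore abundant. The interval between H2ac6 and H2bc4 is shown because it lies between both starts, as the RefSeq promoter window of H2ac6 (GRCm38.p6, chr13:23683910-23684209, minus strand, 5′ to 3′), with matches to CCAAT, to the TATA box form TATAA and to the octamer ATTTGCAT on either strand in capitals.
H2ac6: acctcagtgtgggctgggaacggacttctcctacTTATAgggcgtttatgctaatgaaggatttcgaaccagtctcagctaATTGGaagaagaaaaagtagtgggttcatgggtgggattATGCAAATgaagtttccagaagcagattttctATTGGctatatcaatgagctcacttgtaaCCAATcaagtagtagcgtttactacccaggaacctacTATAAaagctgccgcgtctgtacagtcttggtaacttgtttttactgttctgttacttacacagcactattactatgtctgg
This window held all 3 motifs and includes the annotated start of H2bc4 near its 5′ end.

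Across the family, promoter windows of 300 bases were found for 55 members. CCAAT, on either strand, stood in 83.6% of the member windows and in 37.4% of all 32851 windows. TATAA was found in 72.7% against 24.9%, and the octamer ATTTGCAT in 18.2% against 1.74%. AAACACA, the element described in H1 promoters, was in 12.7% against 7.18%. The motifs differed in frequency by class: CCAAT was in 13 of 13 H2A, 14 of 14 H2B and 10 of 10 H3 windows but in 3 of 10 H4 windows, where TATAA was in 9. The octamer was found in 5 of 13 H2A and 5 of 14 H2B windows and in none of the H1, H3 or H4 windows, and AAACACA in 5 of 8 H1 windows. The windows of head-to-head partners can overlap, so the same site can be counted for both genes and these windows are not all separate. H1f0 and H1f10 held none of the 4 motifs, H1f2 held CCAAT and AAACACA, and H4c9 held TATAA alone. A match describes the letters in the window and nothing about which factor binds there.

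Other H2B genes were at the threshold of detection. H2bc18 was at 1.33, 0 and 2.27 FPKM in control and 0.56, 1.73 and 1.87 FPKM in cKO, with a fold change of 0.23 (SE 0.45). H2bc6 was at 2.07, 1.55 and 0.78 FPKM in control and 1.16, 0.12 and 1.43 FPKM in cKO, with a fold change of −0.42 (SE 0.32). H2bc8 ranged from 0.69 to 1.13 FPKM over the 6 libraries (fold change 0.08, SE 0.12). All 3 overlapped between groups, with adjusted p of 0.840, 0.593 and 0.797. Hist1h2bq and Hist1h2br, whose transcripts share all 1109 windows of the former, carried equal values in 5 libraries and differed by 0.03 FPKM or less in control replicate 3 (1.47 and 1.5 FPKM). The 16 H2B genes summed to 123.2 ± 33.4 FPKM in control and 111.4 ± 2.25 FPKM in cKO (log2 ratio −0.14), with 93.8% from H2bc4.

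The only histone gene past the unadjusted threshold was H3c15, which shares much of its transcript sequence with another H3 gene on the same chromosome. H3c15 (chr3:96238108-96239127, minus strand) measured 7.18, 3.4 and 2.5 FPKM in control and 2.35, 0.52 and 0 FPKM in cKO libraries. Every cKO library lay below every control, although cKO replicate 1 and control replicate 3 differed by only a small margin. The log2 fold change was −1.54 (SE 0.48, 95% interval −2.69 to −0.40), with an unadjusted p of 0.0154 and an adjusted p of 0.312 in limma. Leaving out control replicate 1, which held the highest value, gave −1.19 and an adjusted p of 0.616, and H3c15 was then no longer past the unadjusted threshold either. Without cKO replicate 1 the change was −2.02 and the adjusted p 0.0511.

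H3c14 lies on the other side of the H2ac18 and H2ac19 copies (chr3:96246685-96248509, plus strand) and belongs to the same H3 class. It measured 3.15, 9.36 and 8.82 FPKM in control and 6.35, 10.77 and 9.98 FPKM in cKO libraries, with a fold change of 0.39 in the opposite direction (SE 0.37, adjusted p = 0.655). H3c14 was lowest in control replicate 1, the library in which H3c15 was highest, but in cKO replicate 1 both genes were below their values in control replicates 2 and 3. The transcripts shared 517 windows of 150 bases, which is 59.4% of H3c15 and 30.8% of H3c14. Every window of H3c14 (100%) also occurred in another transcript, since the overlapping gene model Gm20634 and the H3 gene H3c13 (0.36 FPKM or less in each library) share sequence with it. H3c15 accounted for 69.5%, 26.6% and 22.1% of the pair's summed FPKM in the control libraries and for 27.0%, 4.61% and 0% in the cKO libraries.

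Summed, the pair was far steadier than either gene. The sums were 10.33, 12.76 and 11.32 FPKM in control and 8.7, 11.29 and 9.98 FPKM in cKO libraries. The groups overlapped, with cKO replicate 2 level with control replicate 3. Means were 11.5 ± 1.22 and 9.99 ± 1.295 FPKM (SD, n = 3 each), and the fold change was −0.18 (SE 0.11, 95% interval −0.45 to 0.08) with an adjusted p of 0.499. The unadjusted call of H3c15 therefore did not extend to the pair, and the division of shared reads among these genes, which the sum of 2 of them does not remove, was not tested.

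**Figure D3:**
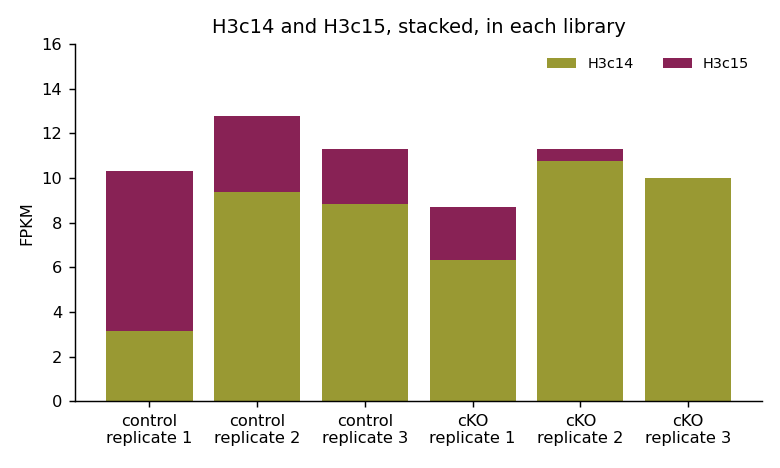
FPKM of H3c14 (olive) and H3c15 (purple) stacked in each of the 6 libraries. The sums lie between 8.7 and 12.76 FPKM, while the share of H3c15 ranges from 69.5% in control replicate 1 to 0% in cKO replicate 3.

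The other 10 H3 genes did not reach the level for testing. The highest was H3c4, at 1.05, 2.57 and 0.32 FPKM in control and 0, 0.55 and 0.35 FPKM in cKO libraries. All 12 H3 genes together gave 15.5 ± 3.29 FPKM in control and 13.2 ± 2.15 FPKM in cKO (log2 ratio −0.24), with 56.3% from H3c14. For scale, H3f3a and H3f3b, which encode the replication-independent variant H3.3, averaged 402.4 and 216.9 FPKM, many times the sum of the H3 cluster genes in these oligo(dT)-selected libraries.

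As a log2 ratio of its sum, H4 differed most among the 5 classes. H4c9 (chr13:22040636-22041362, minus strand), which supplied 71.5% of the H4 signal, measured 12.51, 21.32 and 14.67 FPKM in control and 13.91, 8.39 and 10.55 FPKM in cKO libraries. The groups overlapped because cKO replicate 1 lay above control replicate 1. Its fold change was −0.52 (SE 0.23, 95% interval −1.05 to 0.02), with an unadjusted p of 0.0574 and an adjusted p of 0.392 in limma. Without control replicate 2 it was −0.31, and H4c9 passed the unadjusted threshold without control replicate 1 (−0.67, unadjusted p = 0.0294, limma) or without cKO replicate 1 (−0.69, unadjusted p = 0.0192, limma), with adjusted p of 0.609 and 0.154. Of its 150-base windows, 2.08% occurred in another gene.

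Hist1h4m was at 3.19, 3.14 and 0 FPKM in control and 0.49, 1.03 and 0.6 FPKM in cKO, and its fold change of −0.61 (SE 0.54, adjusted p = 0.633) combined a control library at 0 with controls above all cKO libraries. Without that control library, replicate 3, Hist1h4m was at −1.30 with an unadjusted p of 7.65e-05 and an adjusted p of 0.146 in limma. In that setting, 13.8% of all tested genes had an unadjusted p under 0.05. Of the windows of Hist1h4m, 85.8% also occurred in Hist1h4n. The latter was at 0, 0 and 0.49 FPKM in control and 0, 0 and 1.2 FPKM in cKO libraries. The division of reads between these copies was not tested. H4c12 was at 1.33, 1.01 and 0.48 FPKM in control and 0.47, 1 and 0.88 FPKM in cKO (fold change −0.11, SE 0.19, adjusted p = 0.816). Over all 11 H4 genes the sums were 18.76, 28.39 and 19.26 FPKM in control and 17.14, 13.53 and 16.62 FPKM in cKO libraries. Every cKO sum lay below every control sum, with means of 22.1 ± 5.42 and 15.8 ± 1.95 FPKM and a log2 ratio of −0.49. Without control replicate 2, the highest library, the ratio was −0.27, and the sum was not put to a test.

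**Figure D4:**
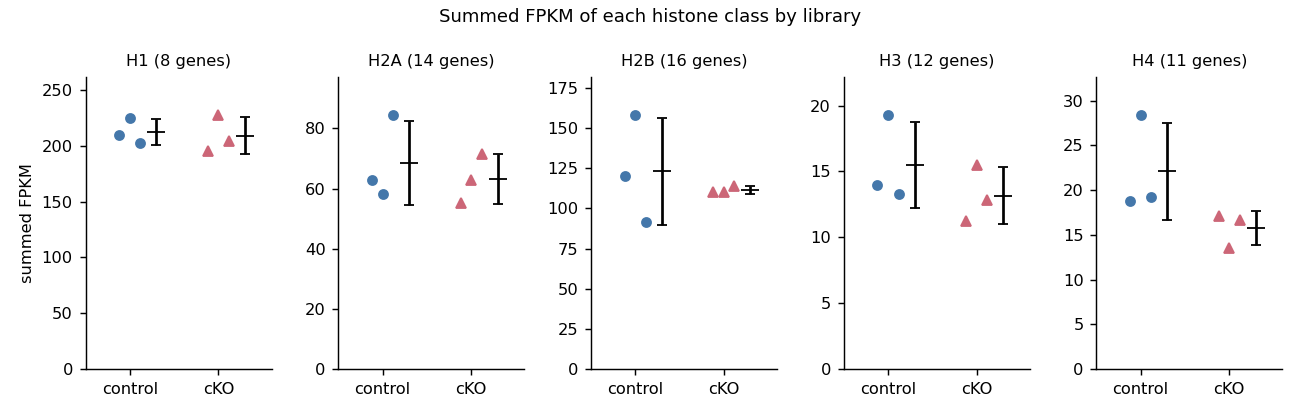
Summed FPKM of each histone class in the control (circles) and cKO (triangles) libraries, with black dashes and bars for the mean ± SD of 3 libraries and a separate axis from 0 for each class. The groups overlap for H1, H2A, H2B and H3, and for H4 the 3 cKO libraries (13.53 to 17.14 FPKM) lie below the 3 controls (18.76 to 28.39 FPKM).

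The 46 histone genes below the testing level held little signal. Together they gave 14.11, 18.91 and 16.02 FPKM in control and 14.69, 12.83 and 14.25 FPKM in cKO libraries, and 27 had a lower and 19 a higher mean in cKO. These sums overlapped between groups. Stretches of shared sequence were common in the family, as 48 of the 61 members shared at least 1 window of 150 bases with another gene. At least 50% of windows were shared in 20 members.

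Order of level could be read only in broad steps. H1f0 (121.04 to 146.4 FPKM) and H2bc4 (80.89 to 151.04 FPKM) overlapped in range, as did H1f2 and H2ac18, and H1f10 and H4c9. The H2B genes led the core classes, followed by H2A. H4 had a higher mean sum than H3 in both groups, but not in cKO replicate 2 (13.53 against 15.48 FPKM). Over the whole family the FPKM sums were 425.94, 489.21 and 411.1 in control and 389.03, 429.71 and 419.95 in cKO libraries, with means of 442.1 ± 41.5 and 412.9 ± 21.2. The groups overlapped.

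Genes of DNA replication were read in the same libraries, since most cluster histone genes are transcribed in S phase. A list of 26 S phase genes was tested in full, and all 26 had a lower value in cKO. Their median on the log2 scale was −0.49 against −0.09 for the 15 histone genes and −0.02 for all tested genes. At an unadjusted p under 0.05, 22 of the 26 were called lower, where 7.76% of all tested genes were, and 0 passed after adjustment. Rrm2, a subunit of ribonucleotide reductase, changed by −0.81 (unadjusted p = 0.0156), Mcm2, a subunit of the replicative helicase, by −0.38 (unadjusted p = 0.0164) and Mki67, the proliferation marker, by −0.66 (unadjusted p = 0.0125), all by limma. Pcna, the sliding clamp, changed by −0.25 (unadjusted p = 0.0642, limma). The list summed to 416.4, 489.9 and 400.8 FPKM in control and 372.1, 289.8 and 262.6 FPKM in cKO libraries, so its groups did not overlap. Control replicate 2 was the highest library both for this list and for the histone sum, whereas cKO replicate 1 was the highest cKO library for the S phase list and the lowest for the histone sum. Both the 15 histone genes and the histone sum include the replication-independent H1f0 and H1f10, with means of 128.9 and 13.8 FPKM. The difference between the lists was not tested.

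Genes that act on histone mRNA were mostly close to zero change. Of 14 such genes, 13 were tested, and 10 were lower and 3 higher, with a median of −0.06. Slbp, whose product binds the stem-loop, was at 18.93, 21.45 and 19.76 FPKM in control and 16.6, 17.61 and 14.97 FPKM in cKO libraries. All cKO values lay below all controls, and the fold change was −0.28 (SE 0.082, unadjusted p = 0.0123, limma). Srrt, a cofactor of the cap-binding complex, changed by −0.28 (unadjusted p = 0.0143, limma) and was the only other gene of the list past the unadjusted threshold, where 7.76% of all tested genes were lower. Npat, the coactivator of histone gene transcription in S phase, was at 4.62, 5.2 and 5.1 FPKM in control and 4.64, 4.55 and 4.16 FPKM in cKO (−0.13, unadjusted p = 0.101, limma).

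Histone chaperones, which carry and deposit histones, were also read. Of 12 tested, 9 were lower and 3 higher, with a median of −0.07, and 5 were below an unadjusted p of 0.05, all lower (7.76% of all tested genes). These were Asf1b (−0.72), Chaf1a (−0.52) and Chaf1b (−0.45), which act in replication-coupled assembly of H3 and H4, with Nasp (−0.43), which holds soluble histones, and Ssrp1 (−0.14), a subunit of the FACT complex. Hira and Daxx, which deposit H3.3 outside replication, had values of −0.03 and 0.02. The remaining values were −0.09 for Supt16, −0.05 for Nap1l1, −0.02 for Ipo4, 0.03 for Asf1a and 0.18 for Npm1. None of these was past the unadjusted threshold.

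A further list, labelled replication-independent variants, held 10 histone and histone variant genes, of which 9 were tested. Of these, 7 were lower and 2 higher, with a median of −0.16. At an unadjusted p under 0.05, 3 were lower (7.76% of all tested genes). Whether each gene of this list is expressed independently of replication was not tested. H2ax, listed as H2afx and encoding the variant phosphorylated at DNA breaks, changed by −0.31 (unadjusted p = 0.0271, limma). Cenpa, the centromeric H3 variant, changed by −0.56 (unadjusted p = 0.0316, limma), and H2aj, listed as H2afj, by −0.49 (unadjusted p = 0.0135, limma). H2az1, listed as H2afz, averaged 222.3 FPKM in control and 193.8 FPKM in cKO (−0.21), and H3f3a (0.00) and H3f3b (0.10) were near zero. None of these lists held a gene with an adjusted p under 0.05.

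**Figure D5:**
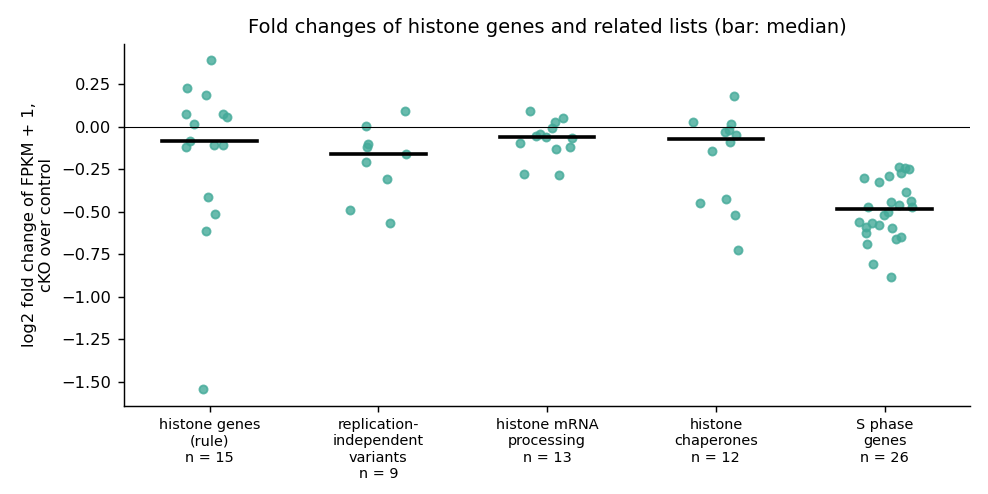
Log2 fold change of FPKM + 1, cKO over control, for the tested genes of each list (points), with bars at the median of each list. The S phase genes all lie below 0 around a median of −0.49, and the histone genes scatter on both sides of 0 around −0.09, with H3c15 at −1.54.

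Markers of other cell types were read in the same libraries. All 3 epithelial markers were higher in cKO at an unadjusted p under 0.05 (5.37% of all tested genes were), and their sum ranged from 0.37 to 12.5 FPKM in control and from 15.1 to 41.4 FPKM in cKO libraries. All 4 cartilage markers were higher, 2 of them at that threshold, with sums of 89.6 to 151.9 against 129.5 to 162.8 FPKM. Macrophage sums overlapped (33.3 to 86.4 and 44.6 to 68.8 FPKM), as did muscle sums (29.3 to 53.9 and 39.8 to 46.2 FPKM), and the 4 endothelial markers summed to at most 3.19 FPKM. Of the 7 osteoblast lineage markers, Ibsp, Bglap, Sp7 and Alpl were lower at that threshold (7.76% of all tested genes). The part of these differences in the H3c15 and H4 values was not tested.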

How the data were processed

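RNA from 3 control and 3 cKO samples of cultured preosteoblasts was sequenced by the authors and aligned to GRCm38 with HISAT2 per the processing notes. It was deposited as FPKM, fragments scaled to transcript length and library size. The program, the gene models and the treatment of reads matching several genes are not given in the sources used here. FPKM holds no read counts, so counting error could not be computed. Groups came from the sample titles. Genes with at least 1 FPKM in at least 3 libraries were tested with limma 3.58.1 (R 4.3.3) on log2(FPKM + 1), with Benjamini-Hochberg adjustment over all tested genes and a threshold of 0.05. A pseudocount of 1 understates changes of low genes. The script was tested on simulated data. All members passing the filter are named, with values in every library for H1 genes, the 3 highest genes of each core class and any with an unadjusted p under 0.05. The members, gene lists and motifs were chosen with earlier results of these data known. Stem-loops, poly(A) signals and windows of 150 bases were read from GENCODE M21 transcripts (61 members matched) and promoters from RefSeq GRCm38.p6 (55 matched). Alternatives were another pseudocount, other filters, median-ratio scaling, a variance trend, a replicate block and leaving out each library; summing H3c14 and H3c15 was added after seeing the data.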

Additional observations from a re-analysis of the deposited data

How the results depend on the processing

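No histone gene passed the adjusted threshold under any of the 13 alternatives. The number past an unadjusted p of 0.05 was 1 as reported, 3 of 61 with no filter (H1f4, H2bc3 and H3c15, against 11.7% of all genes), 0 when every library had to reach 1 FPKM, which removed H3c15, and 0 with H3c14 and H3c15 summed, a setting added after seeing the data. With a replicate block it was 2 (H3c14 and H3c15, the latter with an adjusted p of 0.180); same-numbered libraries had correlations of 0.03, −0.17 and 0.21, so the numbers were not taken to pair them. Leaving out each library gave 1 to 3, with 3 of 15 without control replicate 3 (H2bc4, Hist1h4m and H3c15, against 13.8% of all genes), 2 of 13 without cKO replicate 1 (H4c9 and H3c15, against 21.3%) and 1 otherwise, which was H4c9 and not H3c15 without control replicate 1 (against 8.04%). Over all genes the adjusted count of 0 ran from 0 to 334 when a library was left out, with 334 without cKO replicate 1 and 2 without control replicate 3. H3c15 stayed negative in every setting that tested it, from −2.92 with a pseudocount of 0.1 to −1.15 without cKO replicate 3, with adjusted p from 0.0511 to 0.671. As medians over members of at least 1 FPKM in place of sums, the log2 ratios were −0.92 for H3 and −1.07 for H4, each over 2 genes, while H1 (0.0014) and H2A (0.065) turned from slightly negative. Leaving out a library, the sums ranged from −0.088 to 0.024 for H1, −0.22 to 0.062 for H2A, −0.32 to 0.075 for H2B, −0.37 to −0.048 for H3 and −0.60 to −0.27 for H4. Leaving out a library turned the direction of 9 uncalled genes: H1f0 (−0.070 to 0.066), H1f10 (−0.24 to 0.27), H2ac8 (−0.10 to 0.19), H2ac11 (−0.050 to 0.61), H2ac18 (−0.23 to 0.089), H2bc4 (−0.31 to 0.13), H2bc18 (−0.26 to 0.59), H3c14 (−0.037 to 0.62) and H4c12 (−0.29 to 0.024). The cause of these shifts was not tested. Median-ratio scaling moved the median of all genes by 0.011. With 3 libraries a group and no read counts, only large changes in low histone genes could be resolved.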
